A study of Homo sapiens with 18 samples.

Results

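The 10 genes described here encode the chaperones by which the heat shock response is best known. HSP90AA1 and HSP90AB1 encode the inducible and the constitutive cytosolic HSP90, HSPA1A and HSPA1B the stress-inducible HSP70, HSPA8 the constitutive HSC70, HSPH1 an HSP110 exchange factor, DNAJB1 an HSP40 co-chaperone, HSPB1 the small chaperone HSP27, and HSPD1 and HSPE1 the mitochondrial chaperonin HSP60 and its lid HSP10. They were chosen by name, as the rows whose Ensembl identifiers carry these symbols, and all 10 were found among the 16575 genes of the table. CAGE-seq, which counts the capped 5′ ends of RNA and so the starts of transcripts, was performed on 18 libraries from established lines of human bladder cancer, called CAL-29, HT-1376 and RT-112. Every line carried 6 variants made by a pair of successive stable lentiviral transductions. The first letter of a variant names the first transduction (W for WWOX, K for its control vector) and the second letter the second (A for AP-2α, C for AP-2γ, K for its control vector). KK therefore held control vectors only, WK held WWOX, KA and KC held one AP-2 factor, and WA and WC held WWOX together with an AP-2 factor. Puromycin selection followed the first transduction and G418 selection the second, and no heat or other stress is named in the labels, so the values are levels in culture. There was 1 library per line and variant, so that the lines serve as the replicates of a variant (n = 3) and the 6 libraries of a line are derivatives of the same culture. Each p-value below therefore measures only the spread between such derivatives or between these 3 lines. RT-112 was grown in another medium than the other lines, and the cell line and its medium cannot be told apart.

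In unstressed cells the heat shock factor HSF1 is held inactive by chaperones. When misfolded proteins occupy these chaperones, HSF1 forms trimers, binds heat shock elements made of inverted repeats of the letters GAA, and raises transcription of the genes described here, some of which (HSPA8, HSP90AB1, HSPD1 and HSPE1) are also transcribed at a high rate without stress. Many tumour cells use this programme in the absence of heat.

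Promoter sequence is shown first, since the levels of HSPA1A and HSPA1B parted between the lines although the sequences before their starts are nearly the same. The genes lie side by side on the plus strand of chromosome 6, HSPA1A at chr6:31815543-31817946 and HSPA1B at chr6:31827738-31830254 (GRCh38, GENCODE 44), within the class III region of the major histocompatibility complex. The 150 bases before each annotated start (chr6:31815393-31815542 and chr6:31827588-31827737, no exon there) read as follows in RefSeq on GRCh38.p14, with the inverted GAA repeat GAANNTTC in capitals.
HSPA1A: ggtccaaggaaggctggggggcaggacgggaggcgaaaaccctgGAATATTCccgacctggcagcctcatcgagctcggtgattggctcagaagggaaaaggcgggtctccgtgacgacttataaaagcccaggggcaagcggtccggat
HSPA1B: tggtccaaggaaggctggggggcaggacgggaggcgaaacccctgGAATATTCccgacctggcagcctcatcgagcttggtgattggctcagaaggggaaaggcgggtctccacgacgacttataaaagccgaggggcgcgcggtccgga
Over the whole windows of 300 bases (250 before the start and 50 after it) the sequences of the pair had 277 identical bases, 22 mismatches and 2 gaps. The first 75 nt of the annotated transcripts, the length of a read, had 64 identical bases, 10 mismatches and 2 gaps, so a read from the annotated start has letters that differ between the genes. Their transcripts as a whole are near-identical copies, with 2318 identical bases, 76 mismatches and 129 gaps (91.87% identical with gaps counted). Reads that begin elsewhere can be shared, and the values of this pair are therefore uncertain.

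A stretch of 3 GAA units (GAANNTTCNNGAA, searched on both strands) was found in the RefSeq windows of 4 of the 10 genes, in 4 of their 16 windows, against 0.49% of 35116 windows of all genes. HSP90AA1 held one at 88 bases before its start (chr14:102087045-102087144, minus strand, intron of a longer transcript), and HSP90AB1 held a pair (chr6:44247763-44247862, plus strand, likewise outside exons). HSPA8 (chr11:123062177-123062206, minus strand) and HSPD1 (chr2:197500061-197500090, minus strand) held matches that overlap annotated exons of the same genes, of which 30 bases each are shown. A further 3-unit match of HSPA8, at 230 bases before its start, is not shown, and its overlap with exons was not checked. Letters that match 3 units, or a 2-unit form beside them, are in capitals.
HSP90AA1: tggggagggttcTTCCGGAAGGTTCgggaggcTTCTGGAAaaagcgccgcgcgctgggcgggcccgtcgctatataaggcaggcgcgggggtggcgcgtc
HSP90AB1: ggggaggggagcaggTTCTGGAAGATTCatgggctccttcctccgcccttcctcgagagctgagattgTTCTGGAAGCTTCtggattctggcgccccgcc
HSPA8: gcaggggcgggccccTTCTGGAAGGTTCta
HSPD1: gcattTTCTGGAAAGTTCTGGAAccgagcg
DNAJB1 held the 2-unit form GAANNTTC at a pair of places before one of its starts (chr19:14518408-14518497, minus strand, within DNAJB1 and the overlapping TECR, no exon), and this form or TTCNNGAA occurs in 13.5% of all windows. Every 3-unit match also contains shorter ones.
DNAJB1: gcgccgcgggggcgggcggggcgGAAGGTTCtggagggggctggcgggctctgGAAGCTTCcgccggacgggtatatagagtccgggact
HSPB1 likewise held GAANNTTC and no 3-unit match. The windows of HSPH1 and HSPE1 held neither form, which says only that these letters are not in these windows. A match is a description of the letters, since no binding was measured. HSPE1 and HSPD1 are transcribed away from each other on chromosome 2, and the window of HSPE1 (chr2:197500129-197500428) overlaps one of the windows of HSPD1 on the other strand (chr2:197500225-197500524).

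The libraries held 13357102 to 17958572 reads on genes, so that 1 read was worth 0.0526 to 0.0709 CPM (reads scaled to a library total of 1e6), and a count of 0 allows a level of up to 0.158 to 0.213 CPM, or 3 reads. This limit and the intervals given below cover counting error only. The library labelled CAL-29 KC had a median correlation of 0.841 with the other CAL-29 libraries and of 0.959 with those of HT-1376 (log2 scale, across genes). It is shown apart here, and fits use the other 17 libraries unless stated. The labels were checked with the transduced genes, although a transcript that starts in a vector promoter need not be counted on the gene. WWOX was lower in the W libraries of RT-112 (18.4 to 22.3 CPM against 23.5 to 26 CPM in K), overlapped in HT-1376 and overlapped in CAL-29, where WK held the highest value (155 CPM). TFAP2A and TFAP2C levels of the transduced and other libraries overlapped in 4 of 6 line and factor combinations. RT-112 WA, labelled AP-2α, held 180 CPM of TFAP2C, against 143 CPM in WC and 49.4 CPM in KA. Its TFAP2A was at 25.3 CPM, against 46.8 CPM in KA. Directions below are therefore those of libraries as labelled. The epithelial markers (6 of 6 measured) summed to 4674 to 25691 CPM over the 17 libraries. The urothelial markers, 7 of 7 measured with UPK3A listed at 0 in all of RT-112, summed to 367 to 2092 CPM. In HT-1376 UPK3A was at most at 0.11 CPM, FOXA1 at 0.14 CPM and UPK2 at 0.79 CPM. Of leukocyte markers 1 of 4 was in the table, at most at 0.5 CPM, the endothelial one (1 of 3) reached 4.11 CPM, and the fibroblast ones (3 of 5) reached a sum of 59.5 CPM in HT-1376.

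**Figure D1:**
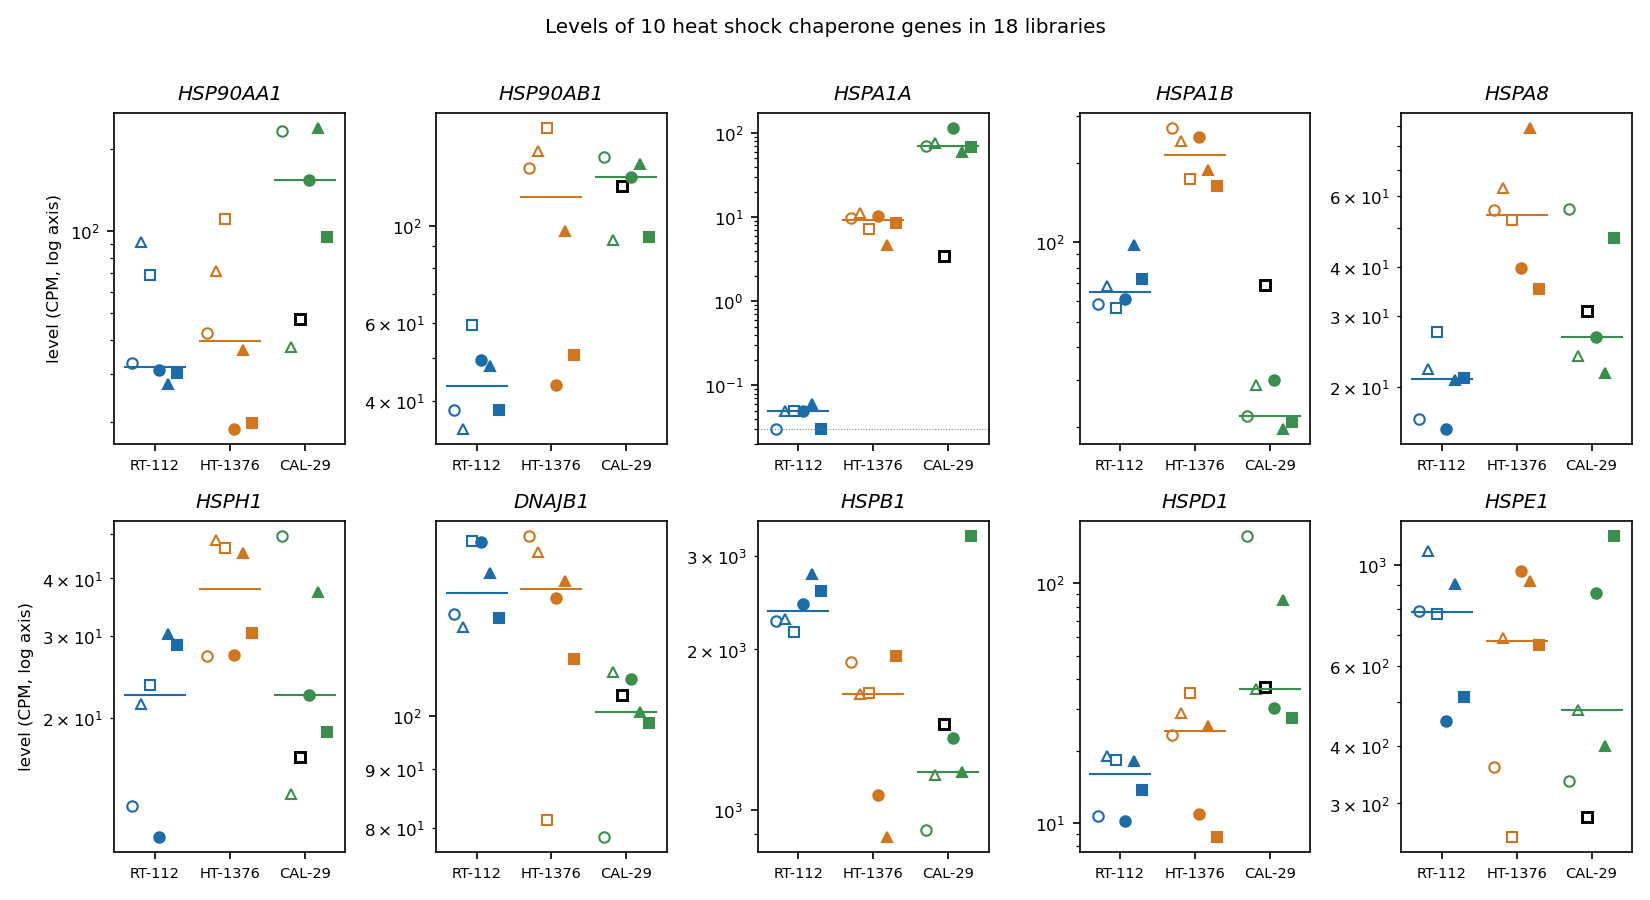
Level of each of the 10 genes (CPM, log axis, a scale of its own for each gene) in RT-112, HT-1376 and CAL-29. Open symbols are K and filled symbols W libraries, circles carry no AP-2 factor, triangles AP-2α and squares AP-2γ, lines are medians, the black open square is the library labelled CAL-29 KC, and libraries without a read of HSPA1A lie on the dotted line. HSPA1A and HSPA1B are the genes whose 3 lines do not overlap.

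HSPA1A, one of the stress-inducible HSP70 genes, was near absent from RT-112, low in HT-1376 and abundant in CAL-29. The 6 RT-112 libraries held 4 reads of it in all, 1 each in KA, KC, WK and WA and 0 in KK and WC, or 0.0368 CPM with an exact Poisson 95% interval of 0.01 to 0.0943 CPM. HT-1376 held 9.87, 11.2 and 7.23 CPM in its K libraries (KK, KA and KC, in this order here and below) and 10.3, 4.67 and 8.49 CPM in its W libraries (WK, WA and WC). CAL-29 held 69.3 and 76.2 CPM in KK and KA and 115, 60.2 and 67.8 CPM in its W libraries. The ranges of the lines did not touch, and all 6 RT-112 values lie under the limit of 3 reads. Summed over the libraries of a line, the CPM was 237 times those of RT-112 in HT-1376 (exact 95% interval 92.1 to 871) and 2109 times in CAL-29 (823 to 7742). Between CAL-29 and HT-1376 the log2 difference, on the scale of log2(CPM + 0.5) that all fits share, was 3.09 (SE 0.22, adjusted p = 6.3e-08).

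HSPA1B, which encodes nearly the same protein, followed another order. RT-112 held 58.4, 68.1 and 56.1 CPM in its K libraries and 61.1, 98 and 72.9 CPM in its W libraries. The K libraries of HT-1376 held 271, 242 and 174 CPM and its W libraries 250.6, 188 and 163 CPM. KK and KA of CAL-29 held 21.9 and 28.9 CPM and its W libraries 30.2, 19.5 and 20.8 CPM. Thus HT-1376 was highest and CAL-29 lowest, without overlap. The log2 difference of HT-1376 to RT-112 was 1.63 (SE 0.18, adjusted p = 3.2e-06), that of CAL-29 to RT-112 was −1.54 (SE 0.19, adjusted p = 9.1e-06) and that of CAL-29 to HT-1376 was −3.17 (SE 0.19, adjusted p = 1.1e-08). Of all genes past the filter, 6.96% had 3 lines without overlap, and HSPA1A and HSPA1B were the 2 among the 10.

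HSPA1A therefore took 0% to 0.0951% of the reads on the pair (RT-112), 2.42% to 4.95% (HT-1376) or 72.5% to 79.2% (CAL-29). The sum of the pair was 56.2 to 98.1 CPM (RT-112), 171 to 281 CPM (HT-1376) and 79.7 to 145 CPM (CAL-29), so that the sums of RT-112 and CAL-29 overlapped while the shares did not. In the library labelled CAL-29 KC, HSPA1A was at 3.46 CPM and HSPA1B at 68.9 CPM, a share of 4.78% (Wilson 95% interval 3.71% to 6.13%), which lies inside the range of HT-1376 and far from that of the other CAL-29 libraries. The related gene HSPA1L, next to the pair, was at most at 2.06 CPM.

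**Figure D2:**
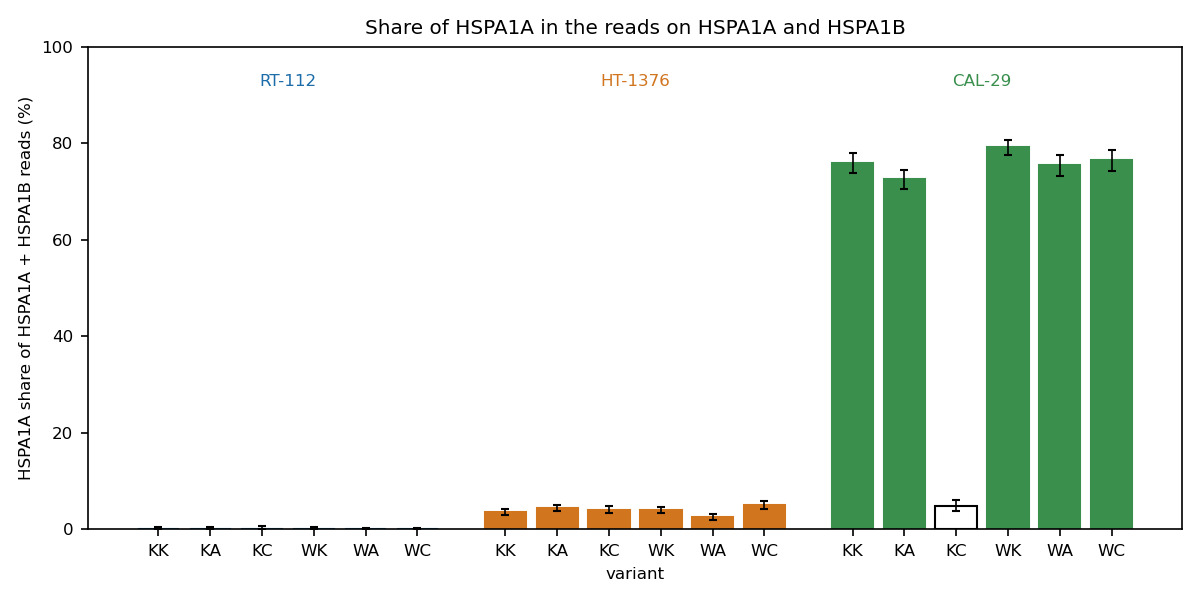
Share of HSPA1A in the reads on HSPA1A and HSPA1B (%, bars from 0) in each library, with Wilson 95% intervals for counting error. The bars stand at 72.5% to 79.2% in CAL-29 without the library labelled KC (white, 4.78%), at 2.42% to 4.95% in HT-1376 and at 0.0951% or less in RT-112.

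HSPA8, the constitutive HSC70, lay below the sum of HSPA1A and HSPA1B in every line. RT-112 spanned 15.6 to 27.4 CPM (median 20.9), HT-1376 35.2 to 89 CPM (median 54) and CAL-29 21.6 to 55.7 CPM (median 26.7), and RT-112 and HT-1376 did not overlap (log2 difference 1.37, SE 0.27, adjusted p = 0.00055). HSPH1, the HSP110 that exchanges the nucleotide of HSP70, spanned 11.1 to 30.3 CPM (RT-112), 27.2 to 48.4 CPM (HT-1376) and 13.7 to 49.4 CPM (CAL-29). All 3 ranges overlapped, and it passed no limit of a fold of 2 on the log2 scale (an absolute log2 difference of 1). A CAGE count does not grow with transcript length, but reads can be shared between genes, as for HSPA1A and HSPA1B. Levels of different genes are therefore set side by side only as deposited values.

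DNAJB1, the HSP40 that hands substrates to HSP70, was the steadiest of the 10. Its lowest and highest values were 120 and 142 CPM in RT-112, 81.3 (KC) and 143 (KK) in HT-1376 and 78.5 (KK) and 109 (KA) in CAL-29, and the SD within lines was 0.216 on the log2 scale, the lowest of the 10. CAL-29 lay below RT-112 without overlap, with a log2 difference of −0.44 (SE 0.16, adjusted p = 0.022) that is under the fold limit. After TMM scaling the same difference was −1.20 and past the limit.

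HSP90AA1, the inducible HSP90, had the largest SD within lines of the 10 (0.956 on the log2 scale). The K libraries of RT-112 held 33, 91.3 and 69.3 CPM and its W libraries 30.9, 27.5 and 30.3 CPM. Those of HT-1376 held 42.3, 71.3 and 111 CPM (K) and 18.8, 36.9 and 19.8 CPM (W). KK and KA of CAL-29 held 233 and 37.6 CPM and its W libraries 154, 239 and 95.4 CPM. In RT-112 and in HT-1376 every W library lay below every K library, whereas in CAL-29 the lowest value was that of KA. CAL-29 was higher than RT-112 by 1.79 (SE 0.49, adjusted p = 0.0048) and than HT-1376 by 1.82 (SE 0.49, adjusted p = 0.0058) on the log2 scale, although the ranges of all 3 lines overlapped. After TMM scaling the difference to RT-112 was 1.03 and no longer passed (adjusted p = 0.054).

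HSP90AB1, the constitutive HSP90, held 38.2, 34.5 and 59.5 CPM in the K libraries of RT-112 and 49.5, 48.1 and 38.2 CPM in the W libraries. HT-1376 held 135, 148 and 167 CPM in K and 43.5, 97.1 and 50.9 CPM in W. CAL-29 held 144 and 92.6 CPM in KK and KA and 129, 138 and 94 CPM in W. The W libraries of HT-1376 lay below its K libraries, while the groups overlapped in RT-112 and in CAL-29. Levels of CAL-29 were above those of RT-112 without overlap (log2 difference 1.54, SE 0.28, adjusted p = 0.00021). HT-1376 differed from RT-112 by 1.10 (SE 0.26, adjusted p = 0.0021). After TMM scaling these were 0.78 and 0.73, under the fold limit. The inducible gene took 36.4% to 72.6% of the reads on the HSP90 pair (RT-112), 23.8% to 40% (HT-1376) or 28.9% to 63.3% (CAL-29), ranges that overlap.

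HSPB1, the small chaperone HSP27, had the highest median of the 10 in each line. RT-112 spanned 2161 to 2772 CPM (median 2360), HT-1376 887 CPM (WA) to 1946 CPM (WC) and CAL-29 917 CPM (KK) to 3266 CPM (WC), where the next value under WC was 1364 CPM. RT-112 lay above HT-1376 without overlap. The log2 differences to RT-112 were −0.72 (SE 0.25, adjusted p = 0.02) for HT-1376 and −0.77 (SE 0.26, adjusted p = 0.018) for CAL-29, under the fold limit as deposited and past it after TMM scaling (−1.10 and −1.53).

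HSPD1 and HSPE1, whose proteins work as one folding chamber in mitochondria and whose genes share a head-to-head promoter region, had levels far apart. HSPD1 stood at 10.7, 19, 18.4 CPM (K) and 10.2, 18.2, 13.7 CPM (W) in RT-112 and at 23.3, 28.8, 34.8 CPM (K) and 10.9, 25.3, 8.71 CPM (W) in HT-1376. KK and KA of CAL-29 held 158 and 36.3 CPM and its W libraries 30.3, 85.2 and 27.5 CPM. CAL-29 was above RT-112 without overlap (log2 difference 1.94, SE 0.34, adjusted p = 0.00018) and above HT-1376 by 1.52 (SE 0.34, adjusted p = 0.0018) with overlap. HSPE1 stood at 793, 1069, 780 CPM (K) and 454, 905, 512 CPM (W) in RT-112 and at 361, 690.2, 253 CPM (K) and 966, 921, 668 CPM (W) in HT-1376. KK and KA of CAL-29 held 335 and 481 CPM and its W libraries 866, 401 and 1154 CPM, so that all 3 lines overlapped. HSPD1 thus held 1.33% to 2.6% of the reads on the pair (RT-112), 1.11% to 12.1% (HT-1376) or 2.33% to 32% (CAL-29). The readthrough gene HSPE1-MOB4 carried the same value as HSPE1 in 18 of 18 libraries, so the reads were assigned to both and cannot be divided between them.

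**Figure D3:**
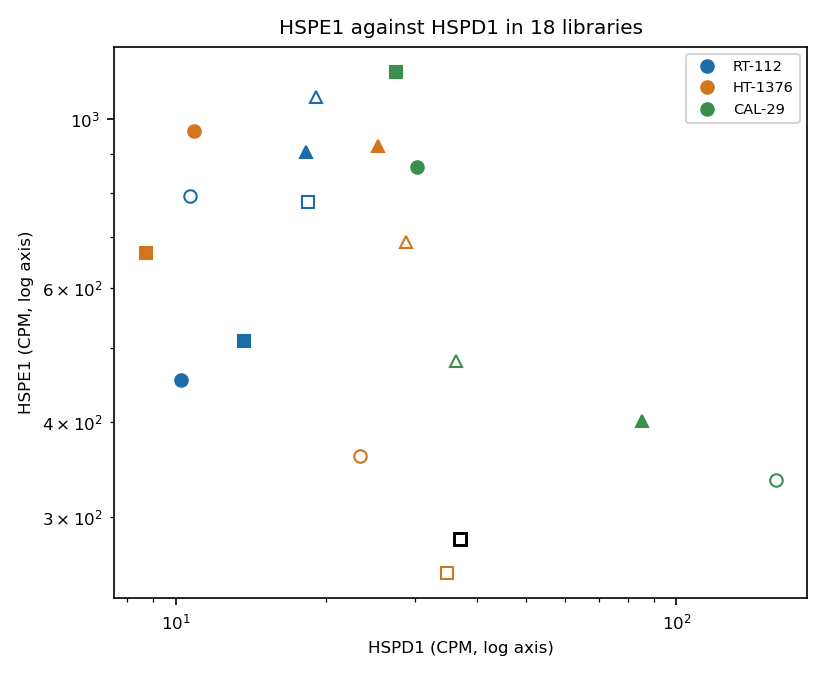
HSPE1 against HSPD1 (CPM, log axes) in 18 libraries, with symbols as in the plot of levels. HSPE1 lies between 253 and 1154 CPM while HSPD1 goes from 8.71 to 158 CPM, and the CAL-29 library with the highest HSPD1 (KK, 158 CPM) has 335 CPM of HSPE1.

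Between lines, a gene was called at an adjusted p under 0.05 and an absolute log2 difference of at least 1. Of the 10, 4 were called higher and 0 lower in HT-1376 than in RT-112, where 38.8% of the 13022 genes past the filter (5 CPM or more in some library) were called. CAL-29 against RT-112 called 4 higher and 1 lower (53.5% of all genes called), and CAL-29 against HT-1376 3 higher and 1 lower (39.7%). The chaperones were thus called about as often as other genes. As deposited, all genes together had a median log2 difference of 0.43, 0.84 and 0.47 in these comparisons, and after TMM scaling 0.09, 0.14 and 0.09. The median of the 10 was 0.63, 0.56 and −0.08 before and 0.27, −0.19 and −0.47 after that scaling. In CAL-29 against RT-112 TMM scaling turned the split to 2 higher (HSPA1A and HSPD1) and 4 lower (HSPA1B, DNAJB1, HSPB1 and HSPE1), where 47.5% of all genes were called (27% higher, 20.5% lower), and HSPA8 and HSPH1 changed sign without being called. HSPA1A, HSPA1B and HSPD1 were called with and without that scaling. HT-1376 against RT-112 then gave 3 higher and 1 lower (35.5% of all genes, 19.2% higher and 16.4% lower), and CAL-29 against HT-1376 3 higher and 2 lower (34.4%, with 18.4% higher and 16% lower). Without the fold limit 8 of the 10 passed in CAL-29 against RT-112, as did 71.5% of all genes. The ranges did not overlap for 4 of the 10 in HT-1376 against RT-112 (44.2% of all genes), 5 in CAL-29 against RT-112 (54.5%) and 2 in CAL-29 against HT-1376 (31.6%).

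**Figure D4:**
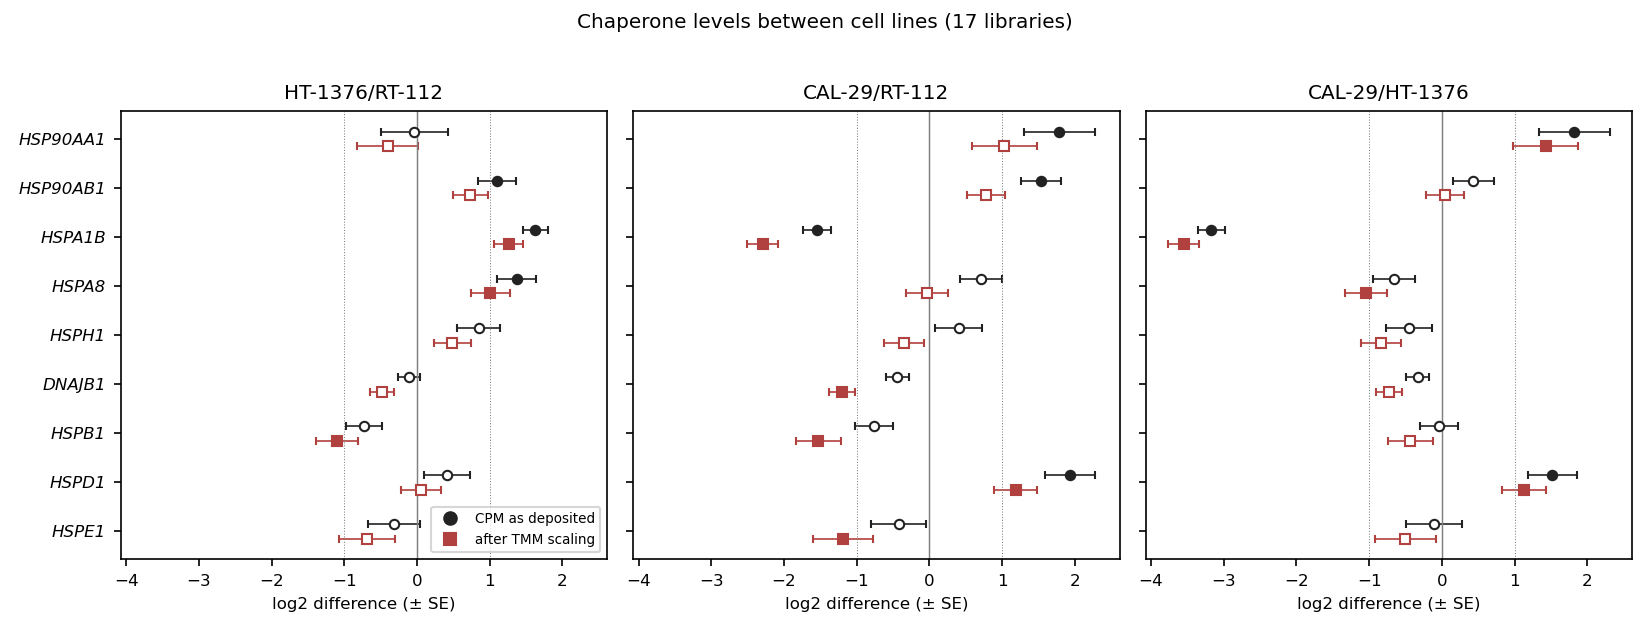
Log2 difference between cell lines with its SE for 9 of the genes (HSPA1A left out, since it has almost no reads in RT-112), from the deposited CPM (circles) and after TMM scaling (squares). Filled symbols passed an adjusted p of 0.05 and the dotted line at 1 or −1, and TMM scaling moves each gene to the left.

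None of the 10 genes was called in any of the 5 comparisons of a variant with KK (limma over 18 libraries, adjusted p under 0.05), where 0% of the genes past the filter were called in each. Unadjusted p-values under 0.05 were found for 38 (WK), 7 (KA), 11 (KC), 37 (WA) and 84 genes (WC), none of them among the 10. edgeR called 0 genes in each and DESeq2 3, 1, 5, 3 and 9 genes, again without the 10. The widest fitted changes were −1.16 for HSPD1 in WK/KK and −1.18 in WC/KK (SE 0.83 in each) and, with the library labelled CAL-29 KC included, −1.48 for HSPA1A in KC/KK (SE 2.49). These fits had no term for the line, so differences between lines entered their spread. A limma fit with the line as a block left out the library labelled CAL-29 KC. It gave an unadjusted p under 0.05 for 745 (WK), 115 (KA), 152 (KC), 366 (WA) and 1823 genes (WC). Among them were 1 of the 10 in WK/KK and 1 in WC/KK, and 0 genes were called. The individual libraries show how little the lines shared. HSP90AA1 in KA was 2.77 times its KK level in RT-112 and 0.16 times in CAL-29, and HSPE1 in WK was 0.57 times KK in RT-112 and 2.68 times in HT-1376. Some genes lay on the same side of KK in all 3 lines, such as HSPE1, which was higher in KA and in WA than in KK in 3 of 3 lines (1.35 to 1.91 times and 1.14 to 2.55 times), HSPB1 in WC (1.03 to 3.56 times), and HSP90AA1, HSPA8 and HSPD1, which were lower in WK than in KK in 3 of 3 lines (0.44 to 0.94, 0.48 to 0.94 and 0.19 to 0.96 times). HSP90AA1 and HSP90AB1 were lower in WC than in KK in 3 of 3 lines (0.41 to 0.92 and 0.38 to 0.998 times). HSPA1A was higher in WK and in KA in 3 of 3 lines, with at most 1 read in RT-112. None of these passed the test, and the share of all genes with 3 lines on one side was not counted.

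A fit to 17 libraries, with the line, WWOX and the AP-2 factor as terms, gave no called gene among the 10 or among all genes (0%) for WWOX, AP-2α or AP-2γ, while 1598, 199 and 343 genes had an unadjusted p under 0.05, none of the 10 among them. For WWOX, edgeR called 16 genes, limma-voom 70 and DESeq2 225, and none was of the 10. The values nearest to the threshold were those of HSPD1, at −0.67 (SE 0.32, adjusted p = 0.41), HSP90AA1, at −0.71 (SE 0.41, adjusted p = 0.47), HSP90AB1, at −0.43 (SE 0.24, adjusted p = 0.47), and HSPE1, at 0.45 (SE 0.3, adjusted p = 0.53). In 8 pairs the labels differ only in WWOX, although the libraries are separate derivatives. The W library was lower in 7 for HSP90AA1, HSPA8 and HSPD1 and in 5 for HSP90AB1, and higher in 6 for HSPB1. Such pairs were not counted over all genes. HSPB1 had the smallest p for AP-2γ (0.49, SE 0.26, adjusted p = 0.9994). Leaving out a line moved the WWOX effect of HSP90AA1 from −1.26 (without CAL-29) to −0.24 (without HT-1376), that of HSPD1 from −0.91 (without RT-112) to −0.45 (without HT-1376) and that of HSPE1 from 0.0418 (without HT-1376) to 1.02 (without RT-112). The AP-2γ effect of HSPB1 lay between 0.17 (without CAL-29) and 0.82 (without RT-112), and none of these values was called.

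Whether the WWOX effect depends on the line was asked with an interaction term, which called 393 genes (3.02%) and 0 of the 10. HSP90AB1 (adjusted p = 0.11) and HSPE1 (adjusted p = 0.17) came nearest. The effect was also fitted within each line, a test chosen after the data were seen. In HT-1376 it called 1118 genes (8.59%), of which 570 (4.38%) were lower, and 1 of the 10, HSP90AB1, by −1.31 (SE 0.3, adjusted p = 0.019). The call was lost without the libraries that carry no AP-2 factor (−1.15, adjusted p = 0.21) and without those of AP-2γ (−1.12, adjusted p = 0.11). RT-112 and CAL-29 gave 0 of the 10 (0% and 0.591% of all genes called). In RT-112 the effect of HSP90AB1 was 0.07 (SE 0.3) and in CAL-29 0.06 (SE 0.34). HSP90AA1 in HT-1376 had a value of −1.52 (SE 0.59, adjusted p = 0.13). Its W libraries lay below its K libraries in RT-112, as for 11.5% of all genes, and in HT-1376, as for 22.8%, and HSP90AB1 was the other gene of the 10 without overlap in HT-1376. HSPB1 lay higher without overlap in the W libraries of RT-112 (9.48% of all genes) and of CAL-29 (9% of all genes, 3 libraries against 2).

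HSPE1 went in opposite directions in RT-112 and HT-1376, a pattern picked out after its values were seen. In RT-112 WK, WA and WC held 0.57, 0.85 and 0.66 times the level of KK, KA and KC, and in HT-1376 2.68, 1.33 and 2.64 times. In CAL-29 WK held 2.58 times the level of KK and WA 0.83 times that of KA. The fitted effects were −0.55 (SE 0.4, adjusted p = 0.87), 1.08 (SE 0.4, adjusted p = 0.11) and 0.95 (SE 0.46, adjusted p = 0.43), and none was called. In the fit without CAL-29 the difference between the effects of HT-1376 and RT-112 was 1.63 (adjusted p = 0.021), and that fit called 9.32% of all genes.

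**Figure D5:**
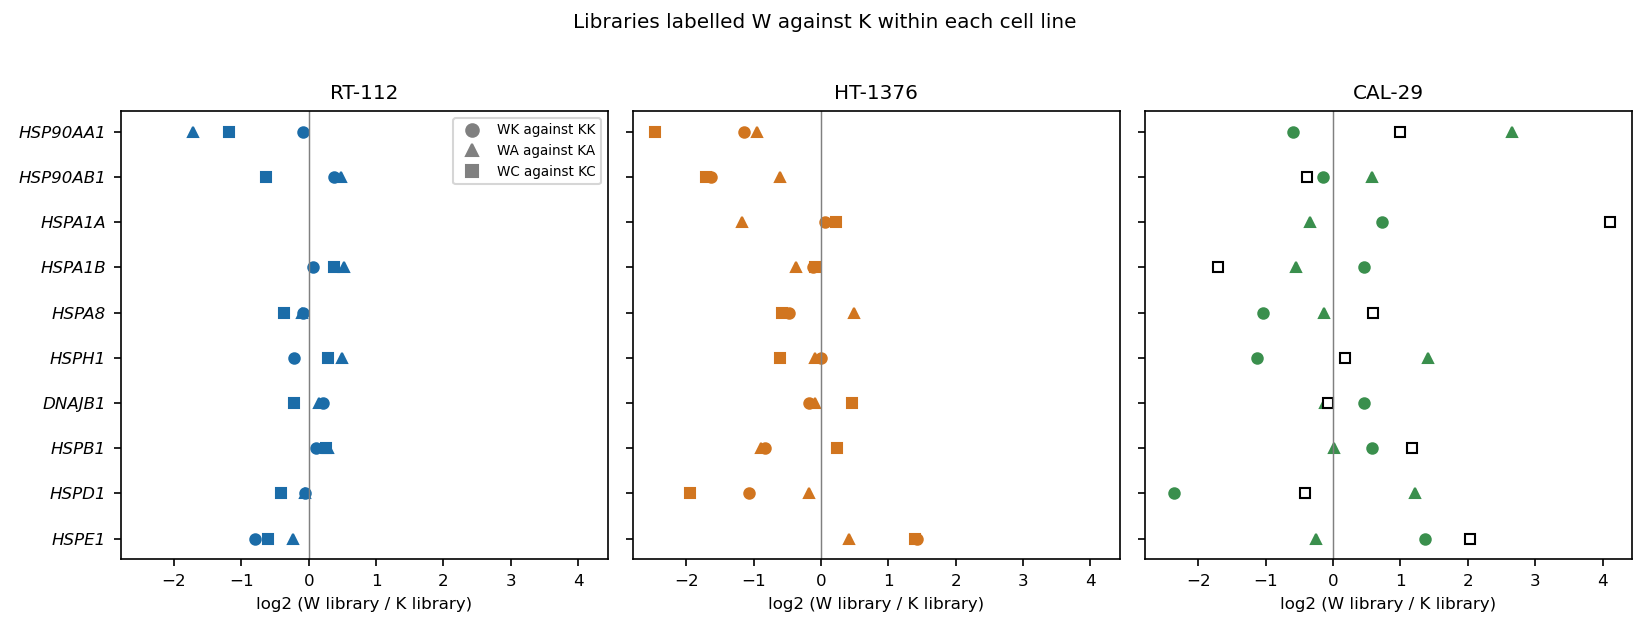
Log2 ratio of each W library to the K library with the same second transduction, for the 10 genes in each line, with the pair that uses the library labelled CAL-29 KC as an open black square and HSPA1A of RT-112 left out. HSPE1 lies left of 0 in RT-112 and right of 0 in HT-1376, and HSP90AA1 and HSP90AB1 lie left of 0 in HT-1376.

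How the genes varied together was described by Pearson's r over 17 libraries after the mean of the line was subtracted from log2(CPM + 0.5). Points of a line share the culture, and a library's depth and composition enter every gene. HSPD1 varied most closely with HSPH1 (r = 0.78), HSP90AA1 (0.73) and HSP90AB1 (0.69), and the HSP90 pair had r = 0.69. HSPA1A and HSPA1B had r = 0.58, with RT-112 at almost no reads of HSPA1A. HSPE1 went against HSPD1 (−0.51) and HSP90AB1 (−0.54) despite the shared promoter region. The level of HSPD1 also followed the median level of all genes past the filter (r = 0.795), as did HSP90AA1 (0.725), HSP90AB1 (0.713) and HSPH1 (0.616), while r was −0.0454 for DNAJB1, −0.00657 for HSPA1A, −0.0763 for HSPA1B, −0.456 for HSPE1 and −0.477 for HSPB1. The part of this median in the chaperone values was not tested.

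Among 5722 other genes with a mean of at least 20 CPM, the 5 most like HSPD1 were TARDBP (r = 0.966), NPM1 (0.965), RSL1D1 (0.964), GDI2 (0.959) and TARS1 (0.953), and 269 genes had r of at least 0.8. For HSP90AA1 they were SARNP (0.956), SEPTIN7 (0.937), PLS3 (0.931), DNAJA1 (0.931) and PDCD10 (0.928), with 130 genes at 0.8 or more. DNAJB1 was followed by ING1 (0.923), SIAH2 (0.871), SETD1A (0.85), TMEM243 (0.815) and NUDT19 (0.772), and 4 genes reached 0.8. HSPA1B had UNKL (0.801), KAT8 (0.785), C6orf136 (0.762), HSBP1L1 (0.753) and WNT7B (0.738), and 1 gene reached 0.8. The number at 0.8 or more was 228 for HSP90AB1, 64 for HSPH1, 59 for HSPE1, 5 for HSPB1, 1 for HSPA8 and 0 for HSPA1A.

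The wider chaperone network was described with 90 other genes in 9 lists, of which 78 passed the filter. Between lines, 27 of the 78 were called higher and 2 lower in HT-1376 than in RT-112 (all genes 27.9% higher and 10.9% lower), 36 higher and 3 lower in CAL-29 than in RT-112 (45.6% and 7.86%), and 16 higher and 7 lower in CAL-29 than in HT-1376 (29.5% and 10.1%). HSF1, the master factor, was at 245 to 351 CPM (RT-112), 143 to 188 CPM (HT-1376) and 138 to 209 CPM (CAL-29), and of the 5 factors and factor-binding genes tested only HSF2 was called in the comparisons with CAL-29, higher in CAL-29 than in RT-112 by 1.4 (SE 0.31, adjusted p = 0.00098). After TMM scaling HSF2 was called in neither comparison with CAL-29 (0.71 against RT-112 and 0.65 against HT-1376). Then 2 of these 5 were lower in CAL-29 than in RT-112 (20.5% of all genes).

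The counts of the lists that follow stand beside these shares. In CAL-29 against RT-112, 45.6% of all genes were called higher and 7.86% lower. After TMM scaling 27% were called higher and 20.5% lower. Genes of the J domain family, which stimulate HSP70, were called higher in 10 of 15 cases in CAL-29 against RT-112 (7 higher and 1 lower after TMM scaling). DNAJC2, a ribosome-bound member, was higher by 2.88 (SE 0.26) and DNAJA2 by 2.31 (SE 0.22), whereas DNAJA4 was lower in HT-1376 than in RT-112 by −4.18 (SE 0.25), from 26.8 to 46.6 CPM down to 0.39 to 2.34 CPM. The other HSP70 and HSP110 genes were higher in 4 of 6 cases in HT-1376 than in RT-112 (3 after TMM scaling). Of all genes 27.9% were higher there (19.2% after TMM scaling). HSPA2 led in that comparison (2.41, SE 0.26, from 0.36 to 1.11 CPM up to 3.76 to 9.27 CPM). In CAL-29 3 of 6 were higher than in RT-112 (2 after TMM scaling). There the mitochondrial HSP70 gene HSPA9 led (12.8 to 25.9 CPM in RT-112, 30.4 to 425.5 CPM in CAL-29). Among the nucleotide exchange factors and co-chaperones of HSP70, 4 of 9 were higher in CAL-29 than in RT-112 (4 higher and 3 lower after TMM scaling). BAG2 was listed at 0 in all 6 libraries of RT-112, at 1.35 to 6.97 CPM in HT-1376 and at 6.57 to 24.8 CPM in CAL-29, so no fold is given, and ST13, a cofactor of HSP70, was higher in CAL-29 than in RT-112 by 1.77 (SE 0.22). The HSP90 co-chaperones gave 6 of 14 in the same comparison and 1 higher and 3 lower after TMM scaling, with PPID, a cyclophilin, at 2.35 (SE 0.23). The TRiC chaperonin, which folds actin and tubulin, gave 5 of 8 (3 after TMM scaling), with CCT5 at 2.74 (SE 0.30) and CCT2 at 2.30 (SE 0.29). Mitochondrial chaperones and proteases gave 4 higher and 2 lower of 12 (3 higher and 4 lower after TMM scaling), among the higher ones HSPA9 and YME1L1 (2.29, SE 0.3).

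CRYAB, the small heat shock protein alpha-B-crystallin, was at 60 to 443 CPM in HT-1376, at most 0.93 CPM in RT-112 and at most 1.29 CPM in CAL-29, apart from 224 CPM in the library labelled CAL-29 KC. Of 9 small heat shock protein genes on the list 3 were past the filter. Among 12 other HSF1 targets tested, 6 were higher and 1 lower in CAL-29 than in RT-112 (3 and 2 after TMM scaling). Of all genes 45.6% were higher and 7.86% lower (27% and 20.5% after TMM scaling). SERPINH1, the collagen chaperone HSP47, went from 2.38 to 27.9 CPM in RT-112 to 183 to 325 CPM in CAL-29.

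For the transductions, 0 of the 78 list genes were called in the variant comparisons or in the WWOX, AP-2α and AP-2γ effects. For WWOX, AP-2α and AP-2γ, 12.3%, 1.53% and 2.63% of all genes had an unadjusted p under 0.05. Of the 78, such p-values were found for 18 for WWOX (7 higher and 11 lower), 1 for AP-2α and 0 for AP-2γ. The smallest were CLU, the extracellular chaperone clusterin, at −1.76 (SE 0.39, adjusted p = 0.19), IER5, a regulator of HSF1, at 0.42 (SE 0.12, adjusted p = 0.25), and CCT5 at −0.86 (SE 0.29, adjusted p = 0.32). Of the 8 TRiC genes 6 (CCT5, CCT8, CCT4, CCT6A, CCT2 and TCP1) had an unadjusted p under 0.05, with effects from −0.86 to −0.37, where 12.3% of all genes did, and none passed after adjustment. After TMM scaling 4 of the 8 did (13.4% of all genes). Of the 12 other HSF1 targets 7 had such a p, 4 higher and 3 lower (6 after TMM scaling). TCP1 is counted in both lists. Within HT-1376, 4 of the 78 (5.13%) were called, against 8.59% of all genes, among them CLU at −2.89 (SE 0.56, adjusted p = 0.0076), CRYAB at −2.09 (SE 0.45, adjusted p = 0.013) and BAG3, a co-chaperone of HSP70, at 0.77 (SE 0.21, adjusted p = 0.037). BAG3 was at 44.6, 71.7 and 50.8 CPM in KK, KA and KC and at 95.3, 94.3 and 90.2 CPM in WK, WA and WC, without overlap. In RT-112 none was called by limma, with 11 at an unadjusted p under 0.05 (7.52% of all genes). In CAL-29 HSPB3 was called, at 0.06 and 0.11 CPM in KK and KA and at 4.03, 4.31 and 9.67 CPM in WK, WA and WC, where the K values are under the limit of 3 reads. HSPB3 was also the 1 list gene called for a WWOX effect that depends on the line. It reached the filter of 5 CPM only in WC of CAL-29, a W library. Both calls therefore rest on values that also let the gene into the test.

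In the library labelled CAL-29 KC the 10 genes had the following levels beside the ranges of the other libraries. HSPB1 (1448 CPM), DNAJB1 (104 CPM) and HSP90AB1 (123 CPM) lay within the ranges of HT-1376 and of CAL-29, HSP90AA1 (47.6 CPM) within all 3, and HSPA8 (31 CPM) and HSPD1 (37 CPM) within that of CAL-29. HSPH1 (16.5 CPM) lay within those of RT-112 and CAL-29, HSPE1 (281 CPM) within that of HT-1376, HSPA1B within that of RT-112 and HSPA1A within none.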

How the data were processed

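CAGE-seq libraries of 6 variants of 3 lines were analysed. The authors mapped 75 nt single-end reads to hg38 with BWA and then HISAT2 2.0.5 and deposited gene values as CPM, reads scaled to a fixed library total. The annotation and the total that was divided by are not given in the sources used here. Symbols of the 16575 Ensembl identifiers were taken from GENCODE 44 (16553 matched), and promoters from RefSeq. Whole reads were recovered from the steps of the deposited CPM (99.97% to 99.99% of values whole, tolerance 0.0051 CPM).

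The 13022 genes that reached 5 CPM in some library were fitted on log2(CPM + 0.5) with limma 3.58.1 in R 4.3.3 and Benjamini-Hochberg adjustment over all of them. Variants were compared with KK in all 18 libraries without a block, and the WWOX, AP-2 and line effects in 17, with the line or the variant as a term. Comparisons between lines were called at an adjusted p under 0.05 and an absolute log2 difference of at least 1. edgeR 4.0.16, limma-voom and DESeq2 1.42.0 on recovered reads, other pseudocounts (0.05 and 2), filters, TMM and quantile scaling, left-out libraries and blocks were alternatives. Scripts were tested on simulated data. Python 3.11.15, NumPy 2.4.6, pandas 2.3.3, SciPy 1.17.1, Biopython 1.88 and matplotlib 3.10.9 were used. Named genes were the 10 members, up to 4 genes of each list with the largest called line difference and up to 4 with the smallest p in the WWOX and AP-2 effects, and the 5 nearest genes of 4 members. HSPA1L, as the neighbour of HSPA1A and HSPA1B, and the cases with all 3 lines on one side were named after their values were seen. 1 gene of the lists is counted and not reported by name here.

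The members and lists were chosen with earlier results of these data known, and the fits within a line and the edgeR fit with a block were added after the data were seen. The lines pair the libraries: deviations of libraries of the same line correlated at 0.742 to 0.915 (RT-112), 0.588 to 0.896 (HT-1376) and 0.0363 to 0.881 (CAL-29, all 6 libraries).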

Additional observations from a re-analysis of the deposited data

Results flagged for a closer look

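HSPB1 in CAL-29 was highest in WC, at 3266 CPM, with the next library at 1364 CPM and the lowest at 917.5 CPM. The gap takes 0.81 of the range, above Dixon's limit of 0.71 for 5 libraries. This was the 1 gap past its limit among 29 groups of libraries, and chance passes about 1 in 20.

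HSPE1 was lower in W than in K in 3 of 3 pairs of RT-112 and higher in 3 of 3 of HT-1376, and the difference between these effects had an adjusted p of 0.02137 (limma, without CAL-29, where 9.32% of all genes were called). With CAL-29 in the fit the term for all 3 lines had an adjusted p of 0.17. HSPE1, and HSPA1B below, were picked for the signs of these same pairs, so their p-values are not an independent check.

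HSPA1B was higher in W in 3 of 3 pairs of RT-112 and lower in 3 of 3 of HT-1376. The same test gave an adjusted p of 0.2517, and the difference was not called.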

How the results depend on the processing

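Counts of the 10 genes called were within 1.5 times the reported count in 217 of 225 alternatives. This includes counts of 0 that stayed at 0, many from comparisons where hardly any gene was called and little could move. The rule also takes no account of direction, so the turned split of CAL-29 against RT-112 after TMM scaling counts as kept. For a WWOX effect that depends on the line, DESeq2 called 1 (HSP90AB1; 8.92% of all genes) and the fit without replicate 3 (CAL-29) 1 (HSPE1; 9.32%), against 0 (3.02%). CAL-29 against RT-112 called 8 without the fold limit (9314 genes in all). In HT-1376 DESeq2 called 3 for WWOX (HSP90AA1, HSP90AB1 and HSPE1; 14.5% of all genes), and leaving out the pair of 1 AP-2 background gave 0 to 3, with HSP90AB1, HSPD1 and HSPE1 called without AP-2α (3.33% of all genes). The same in CAL-29 gave 0 to 2, HSPD1 and HSPE1 being called without AP-2α (5.96% of all genes). The WWOX effect of HSP90AB1 ran from −0.70 to 0.0661 when a line was left out, changing sign without HT-1376. Leaving out a pair, it ran from −0.13 to 0.42 in RT-112 (−0.08 without the pair that carries no AP-2 factor) and from −0.41 (without AP-2α) to 0.39 in CAL-29, and none of these was called. Of 382 fitted values 359 kept direction and call, 15 lost the call, 4 gained it and 4 changed sign. The cause was not tested.

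With the replicate block (the cell line) 0 of the 10 and 0 genes were called for any variant against KK. edgeR with the block, without the library labelled CAL-29 KC, called 0 to 3 genes and 0 of the 10. Genes called over all alternatives ranged from 0 to 225 for WWOX (0 reported), 0 to 1213 for its dependence on the line (393), 109 to 1887 within HT-1376 (1118), 5 to 776 within CAL-29 (77) and 0 to 32 within RT-112 (0). Without replicate 1 or 2, or with all 18 libraries, the dependence on the line gave 0 genes. Depth limits HSPA1A in RT-112, where 4 reads in all were found, and its fitted difference to HT-1376 ran from 2.35 to 6.69 with the pseudocount and was 7.46 with DESeq2.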
